A study of Mus musculus with 8 samples.

Results

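Mitochondrial ribosomal proteins were followed as a group in lenses of mouse embryos at embryonic day 15.5 (E15.5). Members were the probe sets that the array annotation assigns to 1 gene alone whose symbol begins with Mrpl or Mrps and a digit. The rule found 127 probe sets for 74 genes (47 Mrpl and 27 Mrps), out of 20380 probe sets for 12393 genes on the array. The rule uses gene symbols and no measured value, and no filter on low values was used. Mrpl30, Mrpl53, Mrps10 and Mrps27 had no probe set of their own. Lens samples of wild type embryos (4) were compared with lens samples of dnBrg1 transgenic embryos (4), each sample on 1 Affymetrix mouse genome array. The dnBrg1 embryos carry a dominant-negative form of the SWI/SNF chromatin remodeling ATPase Brg1 under the αA-crystallin promoter, which is active in lens fiber cells. All transgenic animals descend from a single founder line, B3, made in FVB/N oocytes and heterozygous for the transgene, and the controls were littermates. The strain of every sample is labelled as a mixed background. Amplification started from 50 ng of lens RNA per sample. The molecule is given as total RNA throughout, whereas the free descriptions also name polysome bound RNA for the 4 wild type samples and for dnBrg1 replicates 1 and 2. The comparison asks whether impaired Brg1 function in fiber cells goes with other amounts of these transcripts.

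The mitochondrial ribosome translates the few messages of the mitochondrial genome, which encode core subunits of the respiratory chain. Its RNA comes from mitochondrial DNA, but every one of its proteins is encoded in the nucleus, made in the cytosol and imported. Some of these proteins have counterparts in bacterial ribosomes and others are specific to mitochondria. Fiber cells of the lens carry mitochondria until they lose their organelles late in differentiation, and the lens epithelium keeps them. In RNA from a whole lens, fewer cells of a type and less RNA per cell cannot be told apart.

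Dissection and array quality set the frame for these values. The arrays had median intensities of 196.86 to 208.96, and their small number limits the precision. The 12 measured lens markers summed to intensities of 134000 to 143000 in wild type and 137000 to 150000 in dnBrg1 samples (4 called higher, 2 lower). The 3' minus 5' log2 difference of the Gapdh and β-actin array controls, a measure of how far amplified RNA reaches from its 3' end, averaged from 1.43 to 2.66 in wild type samples and from 0.59 to 0.65 in dnBrg1 samples. It is given beside the results as the control difference. The 6 measured neural retina markers summed to 12100 to 16700 in wild type and to 7530 to 10200 in dnBrg1 samples, with 4 called lower. The 7 macrophage markers summed to 3710 to 4990 and to 1510 to 2950 (3 higher, 2 lower). The sums of 6 pigment cell markers (6110 to 9400 and 4900 to 7190, 2 called lower), of 7 mesenchyme markers (1690 to 4830 and 888 to 9920), of 6 vascular markers (3660 to 4010 and 3410 to 4070, 2 called higher and 2 lower), of 4 erythroid markers (812 to 1360 and 547 to 1420) and of 6 muscle markers (343 to 711 and 454 to 3220) overlapped between the groups. The part of these tissues and of the control difference in the results below was not tested, apart from the fits named with them. The dimmer Smarca4 probe set, Smarca4 being the gene for Brg1, read 7.25, 6.79, 7.87 and 7.63 in wild type and 9.67, 9.65, 9.73 and 9.88 in dnBrg1 samples on the log2 scale. The brighter one read 10.98, 10.63, 10.82 and 11.01 in wild type and 10.73, 10.55, 10.64 and 10.55 in dnBrg1 samples and was not called (-0.24).

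Promoters of the members were searched for letters named for the factors NRF1, ETS and YY1. RefSeq promoter sequences (GRCm38.p6, 300 bases that span each start) were matched for 65 of the 74 genes, with 71 promoters. No entry was found for Mrpl13, Mrpl15, Mrpl19, Mrpl38, Mrpl4, Mrpl54, Mrps28, Mrps34 and Mrps35. The 6 promoters below run from 200 bases before to 30 bases after the start, 5′ to 3′ on the strand of the gene. They are shown for the largest increase (Mrpl27), for 2 large subunit members with NRF1 letters that rose (Mrpl32, Mrpl45), for 2 paralogs that went opposite ways (Mrps18a, Mrps18c) and for the largest decrease (Mrps24). Capitals mark the letters named for NRF1 (GCGC and A, any base, then GCGC), ETS (CCGGAAG) or YY1 (AAGATGGC), searched on both strands, so that a match on the other strand reads as the reverse complement. The windows lie at chr11:94653591-94653820 on the plus strand (Mrpl27), chr13:14613008-14613237 on the minus strand (Mrpl32), chr11:97315516-97315745 on the plus strand (Mrpl45), chr17:46110804-46111033 on the plus strand (Mrps18a), chr5:100798559-100798788 on the plus strand (Mrps18c) and chr11:5707672-5707901 on the minus strand (Mrps24).
Mrpl27: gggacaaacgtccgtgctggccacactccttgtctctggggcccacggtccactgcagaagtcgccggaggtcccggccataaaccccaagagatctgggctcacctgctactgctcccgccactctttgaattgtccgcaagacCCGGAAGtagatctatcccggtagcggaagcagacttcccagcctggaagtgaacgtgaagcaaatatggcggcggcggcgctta
Mrpl32: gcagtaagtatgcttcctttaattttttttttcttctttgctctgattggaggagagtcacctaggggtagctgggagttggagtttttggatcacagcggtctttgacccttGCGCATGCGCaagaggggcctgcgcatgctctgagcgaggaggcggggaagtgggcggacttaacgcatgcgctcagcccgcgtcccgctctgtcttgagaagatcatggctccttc
Mrpl45: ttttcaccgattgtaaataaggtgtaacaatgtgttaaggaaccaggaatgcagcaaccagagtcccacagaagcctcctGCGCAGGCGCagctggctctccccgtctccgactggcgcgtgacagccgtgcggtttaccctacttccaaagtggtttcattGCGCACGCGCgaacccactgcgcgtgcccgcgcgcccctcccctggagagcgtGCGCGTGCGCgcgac
Mrps18a: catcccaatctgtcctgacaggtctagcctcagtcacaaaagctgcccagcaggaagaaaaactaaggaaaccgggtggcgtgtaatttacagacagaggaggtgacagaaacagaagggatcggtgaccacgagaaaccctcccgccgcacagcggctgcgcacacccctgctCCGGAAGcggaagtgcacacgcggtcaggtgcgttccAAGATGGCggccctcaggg
Mrps18c: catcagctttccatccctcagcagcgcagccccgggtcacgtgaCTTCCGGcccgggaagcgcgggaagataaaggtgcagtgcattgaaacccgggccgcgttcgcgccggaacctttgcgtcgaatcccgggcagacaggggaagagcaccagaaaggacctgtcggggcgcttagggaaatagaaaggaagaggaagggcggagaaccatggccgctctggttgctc
Mrps24: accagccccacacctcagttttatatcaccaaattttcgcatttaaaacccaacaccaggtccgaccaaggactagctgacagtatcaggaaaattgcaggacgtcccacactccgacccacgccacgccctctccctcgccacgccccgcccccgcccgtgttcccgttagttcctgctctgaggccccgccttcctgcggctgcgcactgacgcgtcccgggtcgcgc

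NRF1 letters were in 12 of the 71 member promoters (16.9%), against 7.96% of the 12560 promoters of array genes and 4.6% of all 32851. ETS letters were in 24 (33.8%, against 14% and 8.86%) and YY1 letters in 11 (15.5%, against 3.6% and 2.75%). The YY1 letters can include the start codon, as in Mrps18a. These counts are from promoters of 300 bases, and the windows shown above are shorter (230 bases). In the windows shown, Mrpl27 and Mrps18c hold ETS letters and Mrpl32 holds NRF1 letters. Mrpl45 holds NRF1 letters at 3 places there, and Mrps24 holds none of the 3 kinds. Matches were found in genes of every call. NRF1 letters were in 6 of 38 genes called higher, 3 of 13 called lower and 3 of 14 not called, ETS letters in 11, 5 and 8, and YY1 letters in 8, 2 and 1 of the same genes. Median GC content was 58.7% in member promoters, 59% in those of array genes and 52.7% in all. Mrpl46 and Mrps11 lie head to head on chromosome 7, and their 230-base windows share 101 bases. Both were called higher, Mrps11 by 1.51 and Mrpl46 by 0.39 on the log2 scale. With the control difference as a covariate, described below, they were at 0.02 and 0.18, and neither was called.

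More of these genes were called higher in dnBrg1 lenses than lower. On the own probe set of each gene, the one with the highest mean over the 8 samples, 43 genes rose, 14 fell and 17 were not called (limma, Benjamini-Hochberg adjusted p under 0.05 over all 22626 probe sets). That mean includes the dnBrg1 samples, so these counts depend in part on dnBrg1 values where a gene has several probe sets. By the wild type mean alone, another probe set would stand for Mrpl28 (called lower), Mrpl1 (not called) and Mrpl49 (called higher). All of them are counted as higher here. The 41 genes with 1 probe set involve no choice. With a gene's probe sets averaged instead, 39 genes were called higher and 10 lower (background in that fit 19.5% and 19.9%). On own probe sets the background is high, with 40.7% of all genes called, 17.5% of the 12393 genes higher and 23.3% lower. Among members these shares were 58.1% and 18.9%. All 74 own probe sets were at or above the median brightness of the array, and among the 6990 genes of that brightness 25% were called higher and 27.6% lower. The median log2 fold change (dnBrg1 over wild type) was 0.45 in member genes and -0.11 in all genes. Over all 127 member probe sets, dimmer ones included, it was 0.14, against -0.08 over all probe sets. By at least 2-fold, 19 member genes rose and 2 fell (background 5.45% and 6.36%). The groups did not overlap in 59 genes, with dnBrg1 above in 43 and below in 16 (background 17.5% and 22.8%). Counted over all 127 probe sets, 58 were higher and 31 lower, which is 45.7% and 24.4%, against 19.8% and 21% of all probe sets (40.8% in both directions).

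**Figure D1:**
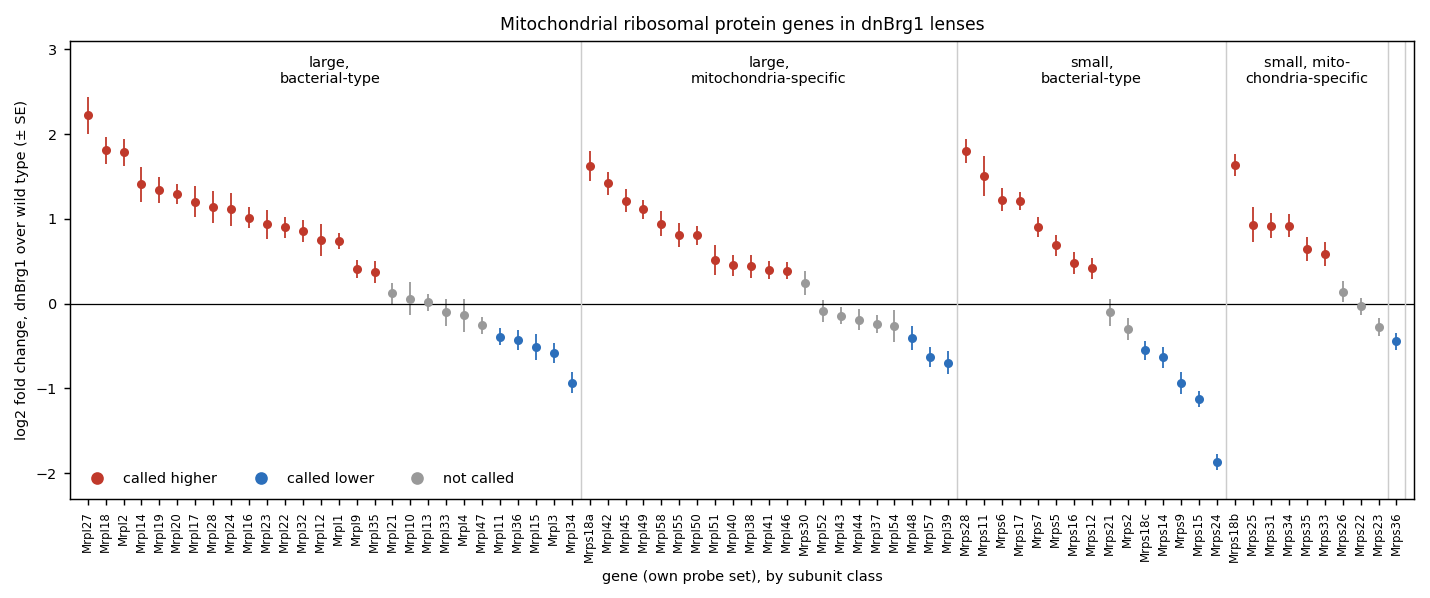
Log2 fold change of dnBrg1 over wild type (vertical axis, bars are the standard error) for the own probe set of each of 74 genes (horizontal axis), by subunit class and size of the change. Red points (43 genes) were called higher, blue points (14) lower and grey points (17) were not called; the range runs from 2.22 for Mrpl27 to -1.87 for Mrps24.

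The difference was seen in every dnBrg1 sample. Set against the wild type mean of each gene, the median over the 74 genes was 0.42, 0.40, 0.59 and 0.43 in dnBrg1 replicates 1 to 4 and 0.11, -0.12, 0.07 and -0.03 in wild type replicates 1 to 4. All 4 dnBrg1 medians were above all 4 wild type medians. Wild type samples spread more: the median SD of a member gene was 0.22 in wild type and 0.11 in dnBrg1 samples, and the wild type SD was the larger in 60 genes (81.1%, against 69.7% of all genes). Wild type replicate 2, with the largest control difference, was the lowest wild type sample in 36 of the 58 probe sets called higher. Wild type replicate 3, with the smallest control difference, was the highest in 29 of them. Over all probe sets called higher on the array, these shares were 50% and 54.9%.

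**Figure D2:**
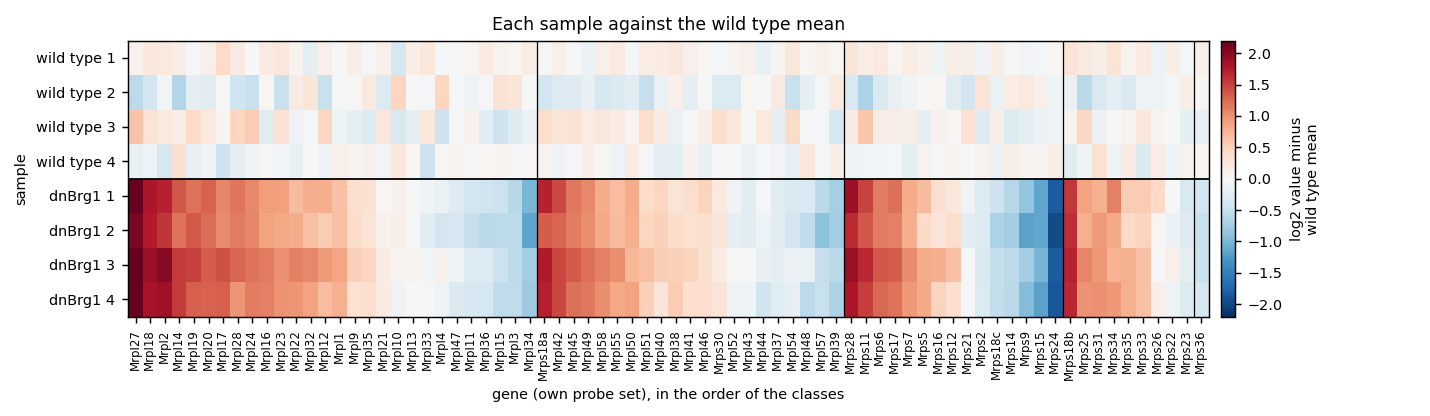
Log2 value of each sample (rows) minus the wild type mean of the gene, for the own probe sets of 74 genes (columns, in the order of the classes and of the fold change; black lines part the classes). Red is above and blue below the wild type mean; the 4 dnBrg1 rows resemble each other, and wild type replicates 2 and 3 depart from the wild type mean in opposite directions for many genes that are red in dnBrg1.

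Mrpl19, a bacterial-type protein of the large subunit, was represented by 3 probe sets, of which its own ends in _s_at, described below. Its own probe set read 8.59, 8.43, 9.07 and 8.47 in wild type and 9.84, 9.99, 10.14 and 9.95 in dnBrg1 samples (log2 intensity). Every dnBrg1 sample was above every wild type sample, and Mrpl19 rose by 1.34 ± 0.15 (log2 fold change ± SE, limma adjusted p = 0.00015, n = 4 per group). A dimmer probe set rose by 2.06 ± 0.28, with 7.42, 6.26, 7.76 and 7.22 in wild type and 9.16, 9.13, 9.40 and 9.21 in dnBrg1 samples. The third read between 3.19 and 3.54 in all samples and was not called (-0.12). With the control difference as a covariate, described below, the first 2 values were 0.61 and 0.37 and neither was called.

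Of 28 measured genes for large subunit proteins with bacterial counterparts 17 rose, 5 fell and 6 were not called, with a median of 0.74. Among all genes 17.5% were called higher and 23.3% lower, and among those at or above the median brightness 25% and 27.6%. These shares apply to the other class and position counts below too, and differences between these lists were not tested. Mrpl27, which lies near the peptidyl transferase center, had the largest increase of all members. It read 9.04, 8.36, 9.57 and 8.81 in wild type and 11.20, 11.02, 11.27 and 11.18 in dnBrg1 samples. The groups were more than 1 unit apart, a 4.66-fold difference (log2 fold change 2.22 ± 0.22, limma adjusted p = 7.9e-05). Mrpl18 belongs to the central protuberance, the part of the large subunit that faces the small subunit's head. Its values were 10.49, 9.84, 10.54 and 10.14 in wild type and 12.03, 11.99, 12.14 and 12.07 in dnBrg1 samples. This is a 3.499-fold rise without overlap (1.81 ± 0.16, limma adjusted p = 4.1e-05). Mrpl2, a protein next to the catalytic center, read 9.56, 9.29, 9.56 and 8.98 in wild type and 11.04, 10.92, 11.35 and 11.21 in dnBrg1 samples. It rose by 1.78 ± 0.16 (limma adjusted p = 4.3e-05), again without overlap. Mrpl14 (1.41), Mrpl20 (1.29), Mrpl17 (1.20), Mrpl28 (1.14), Mrpl24 (1.11) and Mrpl16 (1.01) also rose by over 2-fold. Mrpl9 rose by 0.41 on its own probe set and by 2.02 on a dimmer one.

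The 5 bacterial-type large subunit genes that fell had smaller changes. Mrpl34 fell with both of its probe sets. The brighter read 11.59, 11.42, 11.28 and 11.42 in wild type and 10.43, 10.27, 10.66 and 10.62 in dnBrg1 samples, without overlap (-0.93 ± 0.12, limma adjusted p = 0.00032). The dimmer fell by 0.61 ± 0.14. Mrpl3 (-0.58), Mrpl15 (-0.51), Mrpl36 (-0.43) and Mrpl11 (-0.39) followed, and the Mrpl15 call was lost without any 1 of 7 samples, all but wild type replicate 3. The 6 genes that were not called, Mrpl21, Mrpl10, Mrpl13, Mrpl33, Mrpl4 and Mrpl47, ran from 0.12 to -0.26.

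The mitochondria-specific proteins of the large subunit were divided. Of 21 genes 12 rose, 3 fell and 6 were not called, with a median of 0.40. Mrps18a, which despite its symbol sits in the large subunit, had the largest change of this class. It read 9.08, 8.69, 9.51 and 9.19 in wild type and 10.82, 10.46, 10.87 and 10.83 in dnBrg1 samples. It rose 3.08-fold without overlap (1.62 ± 0.18, limma adjusted p = 0.00012). Mrpl42 (1.42), Mrpl45 (1.21), Mrpl49 (1.11), Mrpl58 (0.94), a peptidyl-tRNA hydrolase also known as Ict1, Mrpl50 (0.81) and Mrpl55 (0.81) rose as well. Mrpl51 (0.52), Mrpl40 (0.45), Mrpl38 (0.44), Mrpl41 (0.40) and Mrpl46 (0.39) rose by less. The Mrpl51 call was lost without any 1 of 7 samples (all but wild type replicate 3), the Mrpl38 call without wild type replicate 4, dnBrg1 replicate 3 or dnBrg1 replicate 4, and the Mrpl40 call without dnBrg1 replicate 3.

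Mrpl39, Mrpl57 and Mrpl48 were the 3 mitochondria-specific large subunit genes that fell. Mrpl39, a protein related in sequence to threonyl-tRNA synthetase, read 12.59, 12.77, 12.17 and 12.69 in wild type and 11.82, 11.79, 11.96 and 11.87 in dnBrg1 samples. The groups did not overlap (-0.70 ± 0.14, limma adjusted p = 0.0033), but a second probe set was at -0.03 and was not called. With the control covariate the first value was also -0.03, without a call. Mrpl57 fell with both probe sets, by 0.62 and by 0.77. Mrpl48 fell by 0.40 on a probe set whose groups overlap, and a dimmer probe set was called higher. Mrps30 (0.24), Mrpl52 (-0.09), Mrpl43 (-0.14), Mrpl44 (-0.19), Mrpl37 (-0.24) and Mrpl54 (-0.26) were not called. A dimmer Mrpl44 probe set was called higher (1.01 ± 0.17), but it was at 0.05 with the control covariate, without a call. A dimmer Mrpl52 probe set was called lower (-0.65), a call lost without dnBrg1 replicate 2.

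In the small subunit, the bacterial-type proteins held both ends of the range. Of 15 genes 8 rose, 5 fell and 2 were not called, with a median of 0.41. Mrps28, the counterpart of bacterial S1, read 10.55, 9.95, 10.47 and 10.18 in wild type and 12.17, 11.93, 12.18 and 12.06 in dnBrg1 samples. It rose by 1.80 ± 0.15 without overlap (limma adjusted p = 3e-05). Mrps11 (1.51), Mrps6 (1.23), Mrps17 (1.21), Mrps7 (0.90), Mrps5 (0.69), Mrps16 (0.48) and Mrps12 (0.41) also rose, and the Mrps12 call was lost without wild type replicate 2 or dnBrg1 replicate 3. Mrps5 rose with both of its probe sets (0.69 and 0.74). Mrps21 (-0.10) and Mrps2 (-0.30) were not called, but a dimmer Mrps2 probe set was called higher (1.41 ± 0.19).

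Mrps24, the counterpart of bacterial S3 at the entry of the message, had the largest decrease of all members. Its brighter probe set read 12.58, 12.43, 12.46 and 12.66 in wild type and 10.71, 10.56, 10.71 and 10.68 in dnBrg1 samples. This is a 3.65-fold fall (-1.87 ± 0.10, limma adjusted p = 9.7e-06), and the dimmer probe set fell by 0.72 ± 0.11. Both probe sets end in _s_at, an ending described below. Mrps15, a protein of the body of the small subunit that binds its RNA, fell with both probe sets. The brighter read 12.20, 12.35, 12.12 and 12.29 in wild type and 11.10, 11.09, 11.21 and 11.06 in dnBrg1 samples (-1.13 ± 0.10, limma adjusted p = 3.8e-05), and the dimmer fell by 0.74. Neither gene had overlapping groups on either probe set. Mrps14 read 11.79, 11.96, 11.49 and 11.91 in wild type and 11.16, 11.05, 11.21 and 11.19 in dnBrg1 samples on its own probe set, which fell by 0.63 ± 0.12 (limma adjusted p = 0.0027), while the dimmer one was at -0.21 and not called. With the control covariate the first value was -0.10, without a call. Mrps9 and Mrps18c complete the 5.

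Of the 9 mitochondria-specific small subunit genes 6 rose and 3 were not called, with a median of 0.64. Mrps18b had the largest change. It read 9.64, 9.22, 9.42 and 9.08 in wild type and 10.90, 10.96, 11.03 and 10.999 in dnBrg1 samples, without overlap (1.64 ± 0.13, limma adjusted p = 3e-05). Mrps25 (0.93), Mrps31 (0.92), Mrps34 (0.92), which is needed for a stable small subunit, Mrps35 (0.64) and Mrps33 (0.58) followed. Mrps26 (0.14), Mrps22 (-0.03) and Mrps23 (-0.28) were not called on their own probe sets. A dimmer probe set of Mrps23 was called higher (1.74 ± 0.26), but it was at 0.06 with the control covariate, without a call. Mrps36, now known as a subunit of 2-oxoglutarate dehydrogenase and placed in no class, fell by 0.44 ± 0.10.

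**Figure D3:**
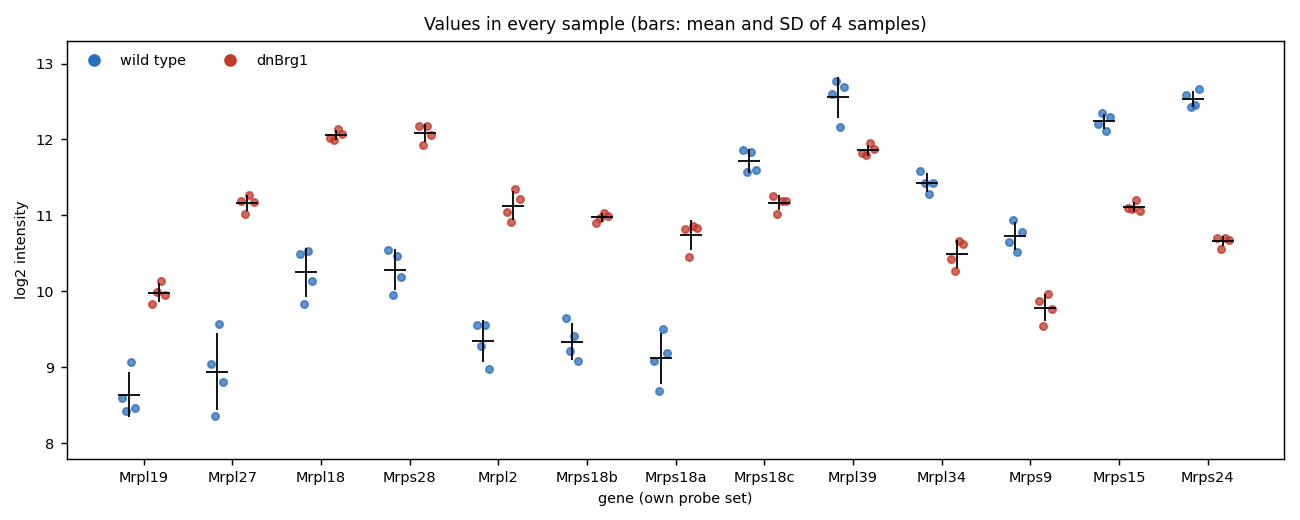
Log2 intensity (vertical axis) by sample for the own probe sets of 13 genes (horizontal axis), with wild type in blue, dnBrg1 in red, and the group mean and its SD (n = 4) in black. No gene shown has overlapping groups, and Mrpl27 (2.22) and Mrps24 (-1.87) mark the ends of the range of log2 fold changes.

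Neighbouring positions in the ribosome were compared through 4 short lists. The mammalian mitochondrial ribosome holds 3 relatives of bacterial S18, each the product of its own gene, and they moved in different directions. Mrps18b and Mrps18a rose by the amounts given above, and Mrps18c, of the small subunit, fell. Mrps18c read 11.86, 11.57, 11.84 and 11.59 in wild type and 11.26, 11.02, 11.20 and 11.19 in dnBrg1 samples (-0.55 ± 0.11, limma adjusted p = 0.0037, no overlap). Of the 6 genes for proteins around the exit tunnel 5 rose, with a median of 1.02. Mrpl45, which holds the ribosome to the inner membrane, read 7.61, 7.35, 7.95 and 7.601 in wild type and 8.79, 8.75, 8.97 and 8.84 in dnBrg1 samples (1.21 ± 0.13, limma adjusted p = 0.00014). Mrpl17, Mrpl24, Mrpl23 (0.94) and Mrpl22 (0.90) also rose, and Mrpl47 was not called. With the control difference as a covariate none of these 5 was called: Mrpl22 was at 1.09, Mrpl17 at 0.88 and Mrpl45 at 0.55, and Mrpl23 (-0.04) and Mrpl24 (-0.06) turned. Of 5 genes of a central protuberance list that does not hold Mrpl18 (Mrpl27, Mrpl40, Mrpl38, Mrpl46 and Mrpl48), 4 rose and Mrpl48 fell. Of these, Mrpl27 alone was called with the covariate. Of the 3 stalk genes, which serve to recruit translation factors, Mrpl12 rose, Mrpl11 fell and Mrpl10 was not called (0.06). Mrpl12 read 10.83, 10.23, 11.19 and 10.63 in wild type and 11.53, 11.28, 11.66 and 11.40 in dnBrg1 samples (0.75 ± 0.19, limma adjusted p = 0.012), and with the control difference as a covariate its value turned to -0.36, without a call.

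Among the uncalled genes, Mrpl47, Mrps22 and Mrpl13 had the 3 smallest standard errors. Mrpl47, of the exit tunnel, read 11.85, 11.83, 11.83 and 11.95 in wild type and 11.59, 11.52, 11.79 and 11.55 in dnBrg1 samples (-0.26 ± 0.10), with no overlap but an adjusted p of 0.063 by limma. Mrps22 read 10.27, 10.12, 10.15 and 10.05 in wild type and 10.15, 10.01, 10.26 and 10.04 in dnBrg1 samples (-0.03 ± 0.10). Mrpl13 read 12.56, 12.43, 12.22 and 12.46 in wild type and 12.43, 12.37, 12.49 and 12.43 in dnBrg1 samples (0.01 ± 0.10). Groups of the last 2 genes overlapped. A dimmer Mrpl13 probe set was called higher (0.97 ± 0.11), and it was at 0.81 with the control covariate, without a call.

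Probe sets of the same gene often went different ways. Of the 33 genes with several probe sets, 10 had probe sets called in both directions, 14 only higher, 7 only lower and 2 (Mrpl21 and Mrpl33) none. On the whole array 13.8% of 4956 genes with several probe sets were called in both directions. Every probe set was called higher for Mrpl49, Mrpl50, Mrpl9 and Mrps5, and lower for Mrpl34, Mrpl57, Mrps15 and Mrps24. For 6 of the 10 genes both directions were also seen among bright probe sets alone. The direction went with the kind of probe set. Of 12 member probe sets with the ending _x_at, which the array maker gives where probes may match other transcripts, 8 fell and 4 were not called. Of 31 with the ending _a_at, given where probes match several transcripts of 1 gene, 22 rose and 3 fell. On the whole array the shares were 9.72% higher and 35.9% lower for _x_at, and 29.8% and 17.8% for _a_at. The ending _s_at is also given where probes may match other transcripts. Of 6 member probe sets with it 3 rose and 2 fell (22.3% and 24.5% on the whole array). They include the own probe set of Mrpl19 and both of Mrps24.

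Mrpl11, Mrpl28, Mrps9 and Mrpl48 showed the opposition between an _x_at probe set and an _at probe set. Mrpl11 read 13.13, 12.97, 13.17 and 13.05 in wild type and 12.68, 12.57, 12.79 and 12.73 in dnBrg1 samples on its own _x_at probe set (-0.39 ± 0.10). On an _at probe set it read 11.12, 10.57, 11.55 and 10.93 in wild type and 11.91, 11.76, 12.20 and 12.12 in dnBrg1 samples (0.96 ± 0.20). Both pairs of groups stood apart without overlap. Mrpl28 read 9.69, 9.06, 9.97 and 9.28 in wild type and 10.68, 10.64, 10.78 and 10.47 in dnBrg1 samples on its own probe set (1.14 ± 0.19). Of its 2 _x_at probe sets the brighter read 10.29, 10.08, 10.32 and 10.41 in wild type samples. In dnBrg1 samples it read 9.61, 9.59, 9.58 and 9.35 (-0.74 ± 0.11), so that the level of Mrpl28 has no settled direction here. The own probe set of Mrpl28 was at 0.05 with the control covariate and this _x_at one at -0.96, neither called. Mrps9, of the head of the small subunit, read 10.66, 10.94, 10.52 and 10.79 in wild type and 9.88, 9.55, 9.96 and 9.77 in dnBrg1 samples on its own _a_at probe set (-0.94 ± 0.13, limma adjusted p = 0.00048), and an _x_at probe set fell by 0.95. A dim _at probe set rose, with 7.27, 7.15, 7.44 and 6.85 in wild type and 8.16, 8.05, 8.16 and 8.22 in dnBrg1 samples (0.97 ± 0.13). Mrpl48 read 11.28, 11.04, 11.21 and 11.50 in wild type and 10.92, 10.69, 11.10 and 10.69 in dnBrg1 samples on its own _x_at probe set (-0.40 ± 0.14), a call lost without any 1 of 6 samples (the replicates numbered 1 and 4 of both groups, wild type replicate 3 and dnBrg1 replicate 2). On its _at probe set it read 10.45, 10.19, 10.42 and 10.43 in wild type and 11.20, 11.02, 11.35 and 11.20 in dnBrg1 samples (0.82 ± 0.11), without overlap and without such losses.

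Mrpl15, with 7 probe sets, had the widest spread. Its own _x_at probe set read 11.87, 12.12, 11.33 and 11.85 in wild type and 11.33, 11.22, 11.33 and 11.24 in dnBrg1 samples (-0.51 ± 0.16). An _a_at probe set read 9.79, 9.26, 9.41 and 9.32 in wild type and 10.62, 10.47, 10.69 and 10.55 in dnBrg1 samples (1.14 ± 0.13). Another _x_at probe set fell by 2.02 ± 0.34, from 8.14, 9.46, 7.999 and 9.23 in wild type to 6.34, 6.91, 7.09 and 6.41 in dnBrg1 samples. The other 4 were at 0.09 and -0.13, which were not called, and at -1.03 and -0.67, which were. The last of these calls was lost without wild type replicate 2 or 3 or dnBrg1 replicate 1, 3 or 4. Mrps25, of the small subunit, read 10.16, 9.34, 10.40 and 9.87 in wild type and 10.82, 10.73, 11.02 and 10.93 in dnBrg1 samples on its own probe set (0.93 ± 0.21). It fell on 2 dimmer ones, from 8.84, 9.24, 8.57 and 9.10 to 8.23, 8.21, 8.40 and 8.26 (-0.66 ± 0.15) and from 7.87, 8.06, 7.63 and 7.81 to 6.76, 6.74, 6.92 and 6.72 (-1.06 ± 0.12). No groups overlapped on any of the 3. Mrpl3, at the catalytic center, read 11.80, 12.02, 11.48 and 11.74 in wild type and 11.15, 11.19, 11.18 and 11.20 in dnBrg1 samples on its own probe set (-0.58 ± 0.12). On an _a_at probe set it read 9.87, 10.04, 9.75 and 9.90 in wild type and 10.38, 10.47, 10.48 and 10.17 in dnBrg1 samples (0.49 ± 0.11), again with separate groups.

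In the other 3 genes the lower call came from a dim probe set whose groups overlap. Mrpl1 read 9.45, 9.39, 9.34 and 9.54 in wild type and 10.07, 10.10, 10.29 and 10.21 in dnBrg1 samples on its own probe set (0.74 ± 0.10), and a probe set below 6.1 fell by 0.70, from 5.80, 5.46, 5.16 and 6.04 to 5.26, 4.94, 4.89 and 4.59. Mrpl41 read 12.48, 12.16, 12.36 and 12.45 in wild type and 12.76, 12.70, 12.85 and 12.73 in dnBrg1 samples (0.40 ± 0.10), a second probe set rose by 0.59, and the dim one fell by 0.67, from 6.24, 6.21, 5.41 and 6.23 to 5.13, 5.18, 5.55 and 5.56. Mrpl51 read 12.38, 11.69, 12.59 and 12.16 in wild type and 12.61, 12.68, 12.87 and 12.72 in dnBrg1 samples (0.52 ± 0.18), and the dimmer one fell by 0.48, from 7.47, 7.31, 7.83 and 7.81 to 7.33, 7.04, 7.05 and 7.10. The lower calls depended on single samples. That of Mrpl1 was lost without wild type replicate 1 or 4 or dnBrg1 replicate 3 or 4, that of Mrpl41 without wild type replicate 1, 2 or 4 or dnBrg1 replicate 1 or 2, and that of Mrpl51 without wild type replicate 4 or dnBrg1 replicate 2, 3 or 4.

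**Figure D4:**
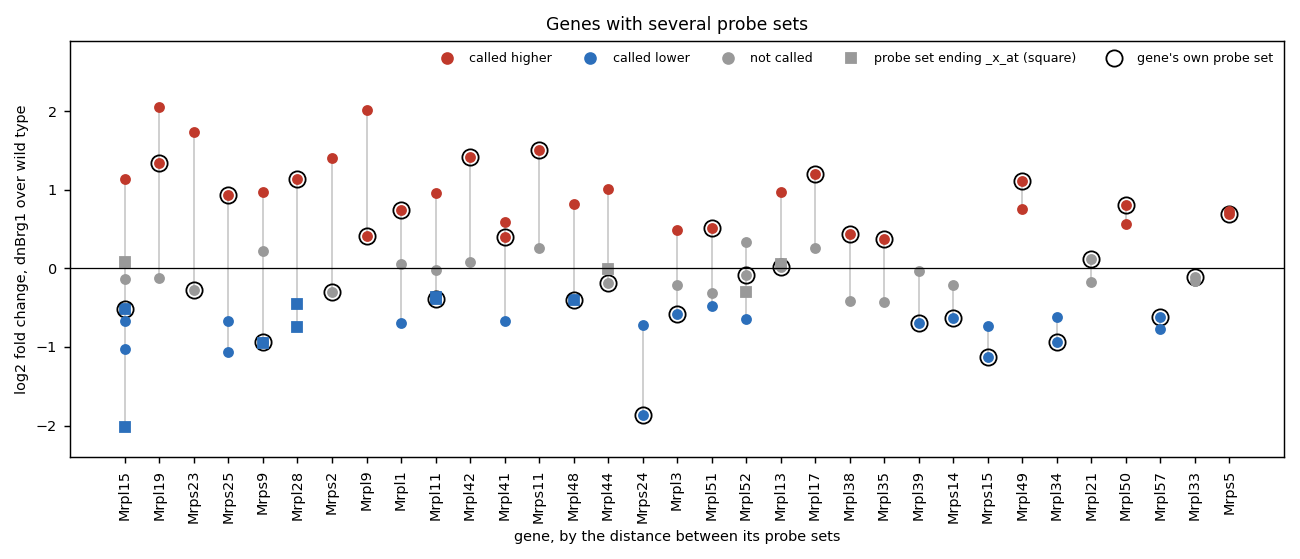
Log2 fold change of every probe set (vertical axis) for the 33 genes with several (horizontal axis, by the distance between their probe sets). Red points were called higher, blue lower and grey not; squares are probe sets ending in _x_at and rings mark the own probe set. Of the 12 squares 8 are blue and 4 grey, and 10 genes hold both a red and a blue mark.

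The control difference moved with the genotype and with these values, so the fit was repeated with it as a covariate. In that fit 8 member genes were called higher and 5 lower (background 3.57% and 2.76%), and the median fell from 0.45 to 0.17. All 8 were among the 43 called before: Mrps18b (1.26), Mrpl16 (1.30), Mrpl32 (1.22), Mrps28 (1.14), Mrpl35 (0.97), Mrpl18 (0.95), Mrps17 (0.85) and Mrpl27 (0.84). Mrpl35, which was at 0.37 without the covariate, lost that earlier call in 6 of the 8 fits that leave out 1 sample (any dnBrg1 sample, wild type replicate 1 or 3). Of the genes called lower Mrps24 (-1.89), Mrps15 (-0.85) and Mrps18c (-0.92) kept the call, and Mrpl54 (-1.37) and Mrps21 (-0.96) were called only with the covariate. Dimmer probe sets of Mrpl57 (-1.52), Mrpl34 (-1.23) and Mrpl52 (-1.66) also kept their lower calls, and without the covariate that of Mrpl52 was lost when dnBrg1 replicate 2 was left out. Mrps18a (0.75), Mrpl2 (1.31) and Mrpl45 (0.55) stayed positive without a call, and Mrps11 was at 0.02. The sign turned in 7 called genes, none of which passed in the new direction. The covariate nearly follows genotype, and the median standard error of the members rose from 0.13 to 0.23, so a call lost in this fit does not show an unchanged transcript.

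**Figure D5:**
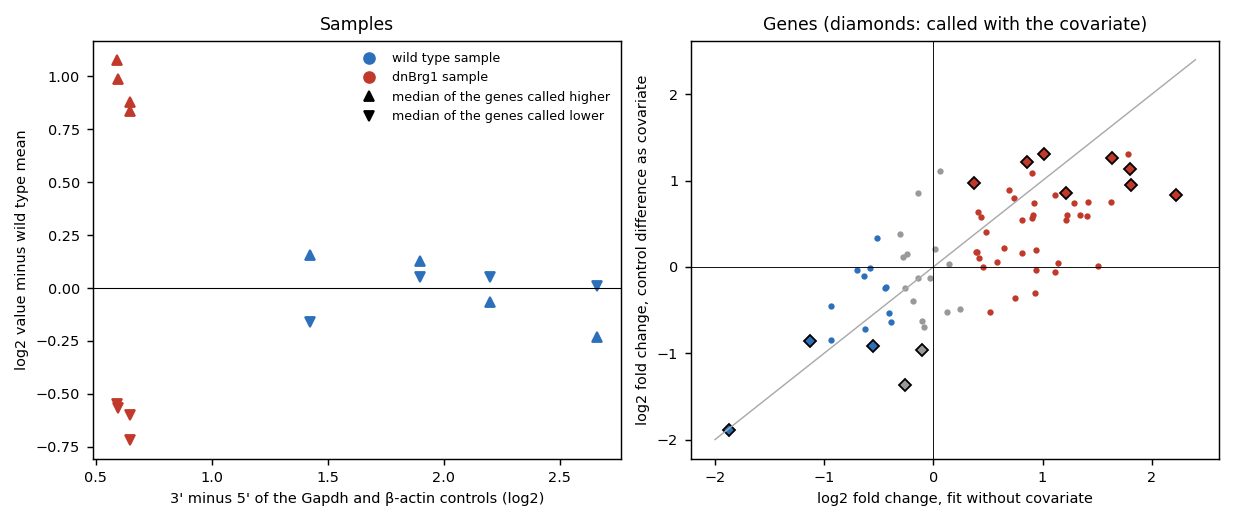
Left, the median over the member genes called higher (upward triangles) and lower (downward triangles) in each sample, as log2 value minus the wild type mean (vertical axis), against the control difference of the sample (horizontal axis; wild type blue, dnBrg1 red). Right, the log2 fold change of 74 genes without (horizontal axis) and with (vertical axis) the control difference as a covariate, colored by the call without it; diamonds mark the 13 genes called with it and the grey line marks equal values. The control difference is below 0.66 in all dnBrg1 samples and above 1.4 in all wild type samples, and 35 of the 43 red points lie below the line.

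Other genes that serve the mitochondrial ribosome were called in both directions. With 40.7% of all genes called, the counts of these short lists describe their members and set no list apart. Of 4 measured subunits named otherwise, Ptcd3 rose (0.74 ± 0.11) and Chchd1 fell by 0.31 ± 0.10, a call lost without wild type replicate 1 or any dnBrg1 sample. Of 18 assembly factors 6 rose and 6 fell, with a median of -0.08. Mterf4, which brings an RNA methyltransferase to the large subunit, rose from 7.75 to 10.04 (2.29 ± 0.13, limma adjusted p = 9.7e-06). Trub2, a pseudouridine synthase, fell by 1.97 ± 0.13. Dhx30, an RNA helicase, fell by 1.83 ± 0.14, and Eral1, a chaperone of the small subunit RNA, fell by 1.32 ± 0.16. The Dhx30 value is from an _x_at probe set, and another with that ending fell by 1.54. Its _a_at probe set fell by 0.40, a call lost in 6 of the fits that leave out 1 sample. A dim Dhx30 probe set was at 0.21 and was not called. Mterf4, Trub2 and Dhx30 were also called with the control covariate, at 2.15, -1.60 and -1.13, and Eral1 (-0.50) was not. Of 13 translation factors 3 rose and 4 fell. Slirp, which stabilizes mitochondrial messages, fell by 0.86 ± 0.10 and was called with the covariate too (-1.07). Mtfmt, the formyltransferase of the initiator tRNA, rose by 0.72 and was called with the covariate too (1.86). Qrsl1 and Mrrf, the recycling factor, fell by 1.02 and 0.68 but were at 0.61 and 0.71 with the covariate, without a call. A second Qrsl1 probe set was at -0.05 and was not called. Without the covariate, the Mtfmt call was lost when wild type replicate 1 or 3 or dnBrg1 replicate 1, 2 or 4 was left out. The Mrrf call was lost without any 1 sample but wild type replicate 3. The elongation factor gene Tufm was at 0.00 on its own probe set and was called higher on another (1.63). Of 8 tRNA synthetase genes Iars2 rose (1.58 ± 0.14) and Tars2 (-0.90), Pars2 (-0.64) and Fars2 (-0.58) fell, Pars2 not without wild type replicate 1, 2 or 4 or dnBrg1 replicate 2 or 4. The own probe sets of Tars2 and Fars2 end in _x_at. A second Fars2 probe set was called higher (0.99), and a second Tars2 probe set was not called (0.12). With the covariate the own probe sets of Iars2 (1.14), Tars2 (-0.09), Pars2 (0.47) and Fars2 (-0.70) were not called.

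Genes for mitochondrial DNA expression, for its nuclear regulation and for import were also called in both directions. Of 9 genes for DNA expression 4 rose and 2 fell. Polrmt, the mitochondrial RNA polymerase, fell on both probe sets (-2.23 ± 0.15 and -0.67 ± 0.15), and the first was called with the covariate (-1.50). Tfb2m, its initiation factor, rose (1.22 ± 0.13), and Tfam, which packages mitochondrial DNA, was at 0.10 without a call. With the covariate Tfb2m was at 1.21 without a call. Of 9 regulators Myc rose (0.63), a call lost without wild type replicate 1, 2 or 4 or dnBrg1 replicate 1 or 2, and 2 fell. These were the coactivator gene Ppargc1a and the nuclear receptor gene Esrra. Ppargc1a was at -1.32 ± 0.14 on its own probe set and was not called on 4 others. With the covariate its own probe set was at -1.12 without a call. Esrra was at -1.28 ± 0.16, and at -1.82 with the covariate, called in both. Nrf1 was not called on any of 3 probe sets (0.09 to 0.15), and Gabpa (0.27) and Yy1 (-0.03) were not called on their own probe sets but were called lower on another (-0.47 and -0.65). These lower calls were lost, for Gabpa, without wild type replicate 4 or dnBrg1 replicate 1, 3 or 4 and, for Yy1, without any 1 sample but wild type replicate 3. Of 11 genes for import and mitochondrial mass 3 rose and 4 fell, with Phb2 at 1.47 and Timm44 at -0.90 on their own probe sets. With the covariate Phb2 (0.55) and Timm44 (-0.12) were not called, and Timm23 (0.90) and Tomm40 (-1.86) were. Another Timm44 probe set was called higher (1.26), and 2 others of Phb2 were not called (0.12 and 0.08). Citrate synthase, Cs, fell by 0.32 on its own probe set, not without dnBrg1 replicate 1 or 4, and rose by 2.13 on a dimmer one.

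The most alike groups on the array had other counts. Of 47 cytosolic ribosomal protein genes 15 were called higher and 2 lower (31.9% and 4.26%, against 17.5% and 23.3% of all genes), with a median log2 fold change of 0.15. Of 34 complex I subunit genes, which are partners of the products of mitochondrial translation, 6 were called higher and 15 lower (17.6% and 44.1%), with a median of -0.17; the first share is that of the background. The 3 groups share all samples, and the difference between them was not tested.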

How the data were processed

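RNA of 8 lens samples was amplified and hybridized to Affymetrix mouse genome arrays. The authors normalized the scans by robust multichip average (RMA, with no version named in the sources). Linear intensities were deposited, and log2 was taken of them. RMA makes the arrays' distributions alike, so a shift shared by most transcripts would be removed. Of 22690 probe sets, 64 controls were set aside and 22626 tested with limma 3.58.1 in R 4.3.3 (lmFit and eBayes; dnBrg1 minus wild type, all 8 samples), two-sided, without covariates or filter. Calls required a Benjamini-Hochberg adjusted p under 0.05 over all probe sets. Groups came from the sample titles and genotypes. The methods describe RNA from distinct embryonic lenses and do not say how many embryos went into a sample. The p-values measure the spread between these samples.

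Probe sets were named through the platform annotation, and 3 that name a member together with another gene were left out. Of the 74 genes, 41 had 1 probe set. Members, subunit classes, pathway and marker lists were chosen with earlier results of these data known. Values by sample are given for Mrpl19, the 6 largest increases and decreases without overlap, genes called in both directions, the largest change of each class and short list, and the 3 uncalled genes of smallest standard error; up to 4 called genes were named per pathway list. Named after their values were seen were Tufm, Tfam, Nrf1, Gabpa, Yy1 and Cs, and further probe sets beside a gene. Promoters came from RefSeq. The fit was first tested on simulated data. Alternatives were array centering, quantile normalization, an added constant of 16, a brightness filter, variance models, array weights, each sample left out, a replicate block, the described RNA fraction, the control covariate, thresholds, probe set choice, and the methods' t-test with Benjamini-Hochberg adjustment and with significance analysis of microarrays (a reimplementation, at a false discovery rate below 1%).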

Additional observations from a re-analysis of the deposited data

Results flagged for a closer look

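In 5 of 150 checks of 4 samples, the sample at one end stood far from the others of its group, which chance gives in about 1 of 20 groups. Mrpl42 read 12.66 in dnBrg1 replicate 2 and 12.84 to 12.85 in the other 3 dnBrg1 samples. Mrps18a read 10.46 in the same replicate and 10.82 to 10.87 in the others. Mrpl46 read 9.53 in dnBrg1 replicate 1 and 9.39 to 9.40 in the others. Mrpl57 read 11.46 in wild type replicate 1 and 11.30 to 11.33 in the others. The median over member genes, against the wild type mean, was 0.59 in dnBrg1 replicate 3 and 0.40 to 0.43 in the other dnBrg1 samples.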

How the results depend on the processing

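Leaving out each sample in turn gave 53 to 58 probe sets called higher, 26 to 32 called lower, 38 to 43 genes called higher, 12 to 16 lower, and a median of 0.41 to 0.48. With the control covariate, 8 probe sets and 8 genes were higher, 9 probe sets and 5 genes lower, and the median was 0.17. Among plain _at probe sets, 33 were higher and 18 lower (background 17.7% and 19.3%). At an adjusted p under 0.01, 20 probe sets were lower (background 12.5%). By at least 1.5-fold, 7 genes were lower (background 15%). Wild type replicates 1 and 3 alone were also set against dnBrg1. They were chosen after seeing the data because the other wild type arrays had the larger control differences. In that fit 36 genes were higher and 13 lower (background 14.6% and 16.5%). With the samples described as polysome bound alone, 30 were higher and 10 lower.

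Signs turned with the control covariate in Mrpl51 (-0.53), Mrpl23 (-0.038), Mrpl24 (-0.062), Mrpl40 (-0.00030), Mrpl12 (-0.36), dimmer probe sets of Mrpl11 (-0.20), Mrpl41 (0.17) and Mrpl50 (-0.18), the own probe set of Mrpl15 (0.33), and 2 of Mrps25 (0.12 and -0.31). With a gene's probe sets averaged they turned in Mrpl28 (-0.0187), Mrpl51 (-0.089), Mrpl35 (-0.0264), Mrpl11 (0.044), Mrpl48 (0.21), Mrps25 (-0.26, called lower), and in Mrps2 (0.55) and Mrps23 (0.73), which were then called higher. This alternative averages probe sets that differ in sign. The cause of the turns with the covariate was not tested. Of 89 called probe sets, 76 kept the call without any 1 sample and 14 with the covariate.

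Replicate numbers are shared by the groups, but same-numbered samples did not deviate together (correlations -0.19, -0.01, -0.05 and 0.16). With the replicate number as a block, 39 genes were higher and 11 lower (background 15.6% and 19.3%). The counts of probe sets were 54 and 26, and the median was 0.45.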
